A study of Mus musculus with 8 samples.

Results

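Interferon-stimulated genes are the genes that cells switch on when an interferon binds its receptor. Type I and type III interferons act through the kinases JAK1 and TYK2 on a transcription factor complex that holds STAT2 and IRF9 and binds the interferon-stimulated response element (ISRE) in front of its target genes. Interferon gamma acts mainly through the gamma-activated sequence (GAS), a second promoter element. In gut epithelium the induced proteins sense viral RNA, cut or sequester it, and mark cells for immune surveillance.

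The list held 39 such genes. A gene entered the measurements when the RefSeq accession of a mouse probe belonged to it, which gave 53 probes for 36 of the 39 genes. Mx1, Mx2 and Parp14 had no matched probe. Gbp6, Ifit1 and Zbp1 had a probe that was found above background on 0 arrays, and the Rtp4 probe was found on 1 array, so these 4 were not tested. The remaining 32 genes were tested among 15881 features, of which 10945 were named genes. Counts given for members refer to these 32 genes.

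The series set PhIP, a carcinogen that forms when meat is cooked at high heat, against PBS in the colon of hCYP1A mice, which are humanized for the CYP1A locus. The PhIP group was 5 male hCYP1A mice on a C57BL/6 background, fed AIN93M diet and given a single PhIP dose of 200 mg/kg by gavage at 8 weeks of age. The PBS group was 3 male hCYP1A mice of the same background, diet and age that received PBS. Colon crypt epithelium was scraped 24 hours later, and the RNA of each mouse was read on 1 single-colour array. Every mouse carried the humanized locus, so no comparison with the ordinary mouse locus was possible, and the scraped material may hold cells other than epithelium.

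The scan deposited with PhIP mouse 1 stood apart. Its scanner gain was 700, against 650 on the 7 remaining scans, and it had 21.4% of mouse probes found above background, against 53.8% to 57.1%. Its median correlation with the other arrays was 0.77, while any 2 of the other 7 correlated at 0.97 or more. Of the 32 tested members, 4 were found above background on it (Irf7, Trim25, Bst2 and Ifitm3), against 28 to 32 on each of the other 7 arrays. Its values for the other 28 members come from spots not found above background, and the members' log2 differences are given with it (8 arrays) and without it (7 arrays). As a check of the label, 6 p53 target genes, which respond to DNA damage, had a median difference from the PBS mean of 1.64 (log2) on this scan. It was 1.20 to 1.35 on the other 4 PhIP arrays and -0.05 to 0.24 on the PBS arrays. Values outside the PBS range were common on the scan of PhIP mouse 1, which limits this check. There 5 of the 6 targets lay above all PBS arrays, as did 40.9% of all features, and 42.5% of features lay below. The epithelial genes Epcam, Cdh1, Krt8, Krt18 and Krt19 were found on all 8 arrays, while the probes of Krt20, Cdx1, Cdx2 and Vil1 were found on 0.

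The following sequences show the element that names this gene group and how it differs between members. Promoters were taken from RefSeq (GRCm38.p6), from 250 bases before the annotated start to 50 after, and 29 of the 39 members had at least 1. The ISRE was searched as GAAA, any 2 bases, GAAA, and the GAS as TTC, any 3 bases, GAA, on both strands and with overlapping matches counted. An ISRE match stood in a promoter of 18 of these 29 genes (62.1%), against 3.99% of 27025 genes with a promoter in the table. A GAS match stood in 9 of the 29 (31%), against 9.55% of those genes. Per promoter, an ISRE match stood in 51.4% of 35 member promoters and 3.44% of 32851 promoters. Capitals mark ISRE matches in every sequence shown, and all sequences read 5′ to 3′ along the gene's strand. The Isg15 promoter (chr4:156200769-156201068, minus strand) held 3 overlapping matches, from base -78 to base -57 relative to the start.
Isg15: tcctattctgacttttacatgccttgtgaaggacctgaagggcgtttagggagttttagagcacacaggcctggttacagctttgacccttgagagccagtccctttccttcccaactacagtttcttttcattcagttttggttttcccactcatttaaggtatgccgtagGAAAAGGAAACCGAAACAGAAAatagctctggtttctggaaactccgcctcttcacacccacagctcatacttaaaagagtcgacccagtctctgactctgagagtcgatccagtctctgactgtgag

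Shorter windows of 60 bases, starting 10 bases before the first match, show how the element is placed in other members. They lie at chr5:120907496-120907555 (Oas1a, minus strand), chr5:120887582-120887641 (Oas1g, minus strand), chr19:34583363-34583422 (Ifit3, plus strand), chr12:26456523-26456582 (Rsad2, minus strand), chr8:71537553-71537612 (Bst2, minus strand), chr10:128270266-128270325 (Stat2, plus strand) and chr11:48871401-48871460 (Irgm1, minus strand).
Oas1a: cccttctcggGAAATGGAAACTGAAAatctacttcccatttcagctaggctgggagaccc
Oas1g: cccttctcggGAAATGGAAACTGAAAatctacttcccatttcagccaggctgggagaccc
Ifit3: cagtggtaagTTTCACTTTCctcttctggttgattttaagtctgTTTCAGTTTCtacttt
Rsad2: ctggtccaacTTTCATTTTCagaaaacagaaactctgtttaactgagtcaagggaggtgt
Bst2: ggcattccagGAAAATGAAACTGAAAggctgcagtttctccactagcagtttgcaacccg
Stat2: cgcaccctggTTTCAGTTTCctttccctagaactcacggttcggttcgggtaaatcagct
Irgm1: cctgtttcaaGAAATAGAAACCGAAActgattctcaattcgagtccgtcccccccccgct

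Oas1a and Oas1g are neighbouring copies of a gene, their windows carry the same pair of overlapping matches, and whether their array probes also read the other copy was not tested. In Bst2 a GAS match overlapped the first ISRE match. The members with the smallest unadjusted p over 8 arrays, Irf7 and Oasl1, held no such letters in their windows (chr7:141266375-141266674, minus strand, and chr5:114922990-114923289, plus strand), which are shown because the results turn on them.
Irf7: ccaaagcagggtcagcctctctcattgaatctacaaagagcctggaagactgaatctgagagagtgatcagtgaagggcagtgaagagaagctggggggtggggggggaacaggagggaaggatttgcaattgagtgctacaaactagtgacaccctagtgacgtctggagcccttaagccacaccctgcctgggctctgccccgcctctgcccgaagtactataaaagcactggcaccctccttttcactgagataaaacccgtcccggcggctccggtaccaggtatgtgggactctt
Oasl1: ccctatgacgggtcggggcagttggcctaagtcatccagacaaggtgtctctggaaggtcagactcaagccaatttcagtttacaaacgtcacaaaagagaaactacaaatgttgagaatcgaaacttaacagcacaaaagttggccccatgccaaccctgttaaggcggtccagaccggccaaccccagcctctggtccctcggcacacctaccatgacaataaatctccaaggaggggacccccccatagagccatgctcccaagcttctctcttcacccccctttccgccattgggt

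**Figure D1:**
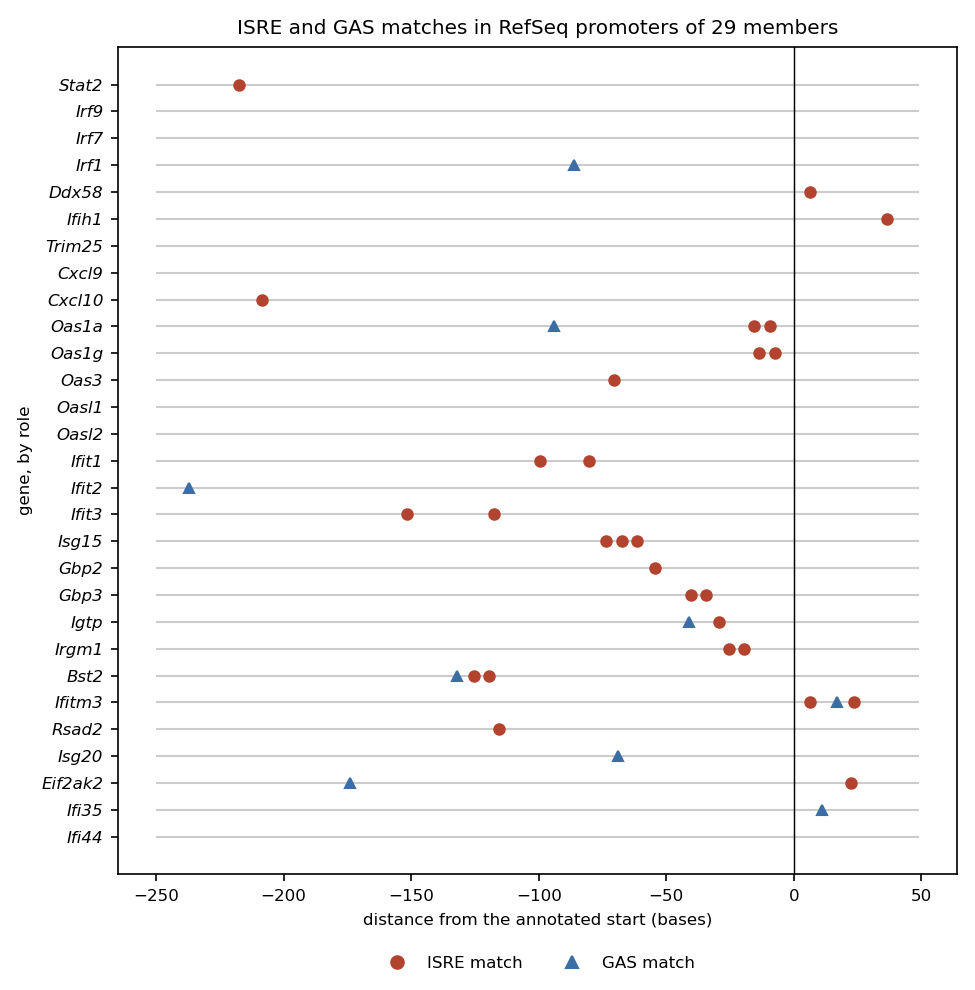
ISRE matches (circles) and GAS matches (triangles) by distance in bases from the annotated start, in 29 members with a RefSeq promoter, ordered by role. Of the ISRE matches drawn, 23 lie before the start, Isg15 has 3 ISRE matches side by side, and Irf7, Oasl1 and Oasl2 have none of either kind in this window.

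No member passed the test of PhIP against PBS. By limma with Benjamini-Hochberg adjustment over all features, 0 of 32 members were higher and 0 were lower, with 8 arrays and with 7. The background was 0.0126% of features called higher and 0% lower with 8 arrays, and 0.0315% and 0% with 7. At an unadjusted p under 0.05, 2 members were higher (Irf7 and Oasl1) and 0 lower with 8 arrays, against 1.44% and 1.64% of all features. With 7 arrays 5 were higher (Oasl1, Ifit2, Ifi35, Rsad2 and Irf7) and 0 lower, against 5.8% and 3.47% of all features. The smallest adjusted p of any member was 0.837 with 8 arrays and 0.281 with 7, the second for Oasl1. In scraped tissue, fewer cells of a type and less RNA per cell cannot be told apart.

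The direction of the members depended on the scan of PhIP mouse 1. With 8 arrays 20 of 32 members (62.5%) had a positive log2 fold change, against 51.1% of all features, and their median was 0.12, against 0.01. With 7 arrays 28 of 32 (87.5%) were positive, against 55.8%, and the median was 0.25, against 0.03. The 4 with a negative value on 7 arrays were Gbp3, Iigp1, Isg20 and Cxcl10. All PhIP arrays lay above all PBS arrays for 1 member (Oasl1) with 8 arrays, where 3.66% of features did so. They did for 4 members with 7 arrays (Oasl1, Ifit2, Rsad2 and Ifi35), where 5.98% did. For 0 members did all PhIP arrays lie below, against 2.07% and 2.89% of features.

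**Figure D2:**
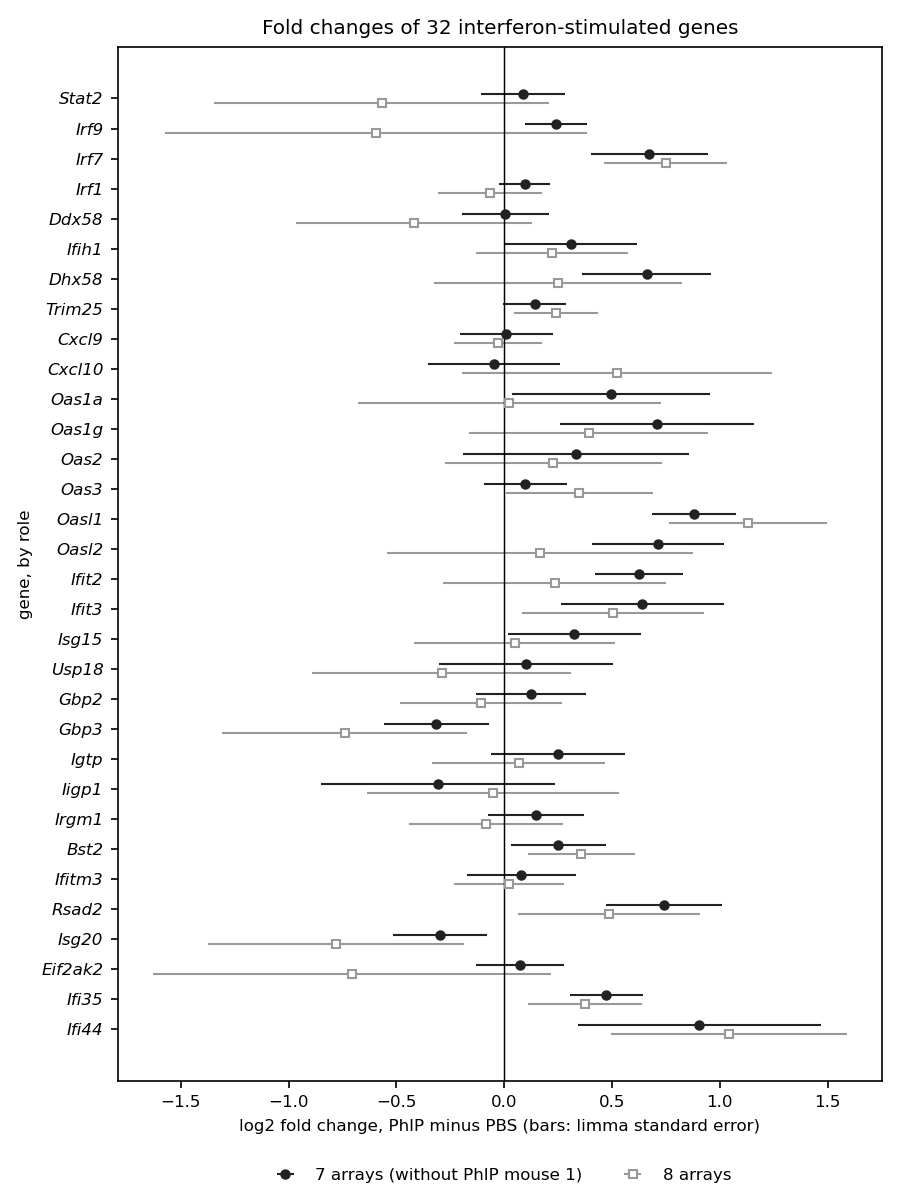
Log2 fold change of each of 32 members (PhIP minus PBS, bars are limma standard errors), with 7 arrays (filled circles) and with 8 arrays (open squares). Leaving out PhIP mouse 1 shortens most bars and places 28 of 32 values above 0, where 20 lie above 0 with all arrays.

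The arrays fall into batches that partly follow the groups. PBS mouse 1, PBS mouse 2, PhIP mouse 1 and PhIP mouse 3 were marked as re-dipped in the names of their scans, and PBS mouse 1 and 2 lay in a slide number range of their own. That range held no PhIP array, so a fit with slide range as a block sets PhIP against PBS mouse 3 alone. The median of the members was then -0.07 and 13 of 32 were positive. Taking the shared range alone is nearly the same comparison, with PBS mouse 3 as its 1 PBS array. It gave -0.07 with 12 of 30 positive. With re-dipping as a block the median was 0.05, with 19 of 32 positive. Within the re-dipped arrays it was -0.09, with 11 of 27 positive, and within the others, with their 1 PBS array, 0.0026, with 15 of 29 positive. On 7 arrays the median blocked by slide range, again against PBS mouse 3 alone, was 0.15 (19 of 32 positive). Blocked by re-dipping it was 0.28 (28 of 32 positive). The positive median of the list on 8 arrays did not hold with slide range as a block or within the re-dipped arrays. The re-dipped PhIP arrays are those of mice 1 and 3, and 4 of 32 members were found on the scan of mouse 1. On 7 arrays PhIP mouse 3 lay above PBS mouse 1 for 28 of 32 members, with a median difference of 0.46. It lay above PBS mouse 2 for 30 of 32, with a median difference of 0.77. The part of the PhIP mouse 1 scan in the -0.09 was not tested.

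Among the transcription factors, Irf7, which drives interferon genes once activated, had the second smallest unadjusted p of the members with 8 arrays, after Oasl1. Its normalized log2 intensity was 9.46, 8.41, 9.47, 9.12 and 9.45 in PhIP mice 1 to 5, against 8.50, 8.15 and 8.65 in PBS mice 1 to 3. All PhIP mice except mouse 2 lay above every PBS mouse, and the groups overlapped through that mouse. The log2 difference was 0.75 (SE 0.28, adjusted p = 0.837), and 0.67 (SE 0.27, adjusted p = 0.514) with 7 arrays. Blocked by re-dipping it was 0.80, and within the re-dipped arrays 1.15. Blocked by slide range it was 0.54, and within the arrays not re-dipped 0.34, both against PBS mouse 3 alone. Irf7 was 1 of the 4 members found above background on all 8 arrays.

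Stat2 and Irf9, partners in the complex that binds the ISRE, followed a different course. Stat2 stood at 8.88, 9.43, 9.40 and 9.77 in PhIP mice 2 to 5 and was not found in PhIP mouse 1 (6.10), against 9.19, 9.26 and 9.40 in the PBS mice. Irf9 stood at 8.29, 8.79, 8.56 and 8.72 in PhIP mice 2 to 5, with PhIP mouse 1 at the floor of 4.41, against 8.48, 8.23 and 8.34 in the PBS mice. Leaving out PhIP mouse 1 turned both log2 fold changes, which were -0.57 (SE 0.78) and -0.59 (SE 0.98) with 8 arrays and 0.09 (SE 0.19) and 0.24 (SE 0.14) with 7. The other tested Irf9 probe did not turn, at 0.32 (SE 0.40) with 8 arrays and 0.28 (SE 0.40) with 7. Irf1, a factor that answers to interferon gamma, had -0.07 (SE 0.24), and 0.10 (SE 0.12) with 7 arrays. Its levels were 8.41 to 9.37 in PhIP mice and 8.94 to 9.29 in PBS mice, and the groups overlapped. The other tested Irf1 probes gave -0.12 (SE 0.42) and 0.35 (SE 0.35) with 8 arrays, and 0.15 (SE 0.24) and 0.24 (SE 0.29) with 7.

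The sensors of viral RNA were close to the PBS level or slightly above it on 7 arrays. Dhx58, which encodes LGP2, a regulator of the other RNA helicase sensors, stood at 6.76, 7.63, 7.0 and 7.82 in PhIP mice 2 to 5 and was not found in mouse 1 (5.26), against 6.67, 6.31 and 6.95 in PBS mice. Its log2 difference was 0.25 (SE 0.58) with 8 arrays and 0.66 (SE 0.30, adjusted p = 0.561) with 7. Mice 3 and 5 were highest, and mouse 2 lay within the PBS range. Ddx58, which encodes RIG-I, had -0.42 (SE 0.55) and 0.01 (SE 0.20), and Ifih1, which encodes MDA5, had 0.22 (SE 0.35) and 0.31 (SE 0.31). The other tested Ddx58 probe had -0.10 (SE 0.61) and 0.33 (SE 0.35). Trim25, the ubiquitin ligase that activates RIG-I, was found on all arrays and had 0.24 (SE 0.19) and 0.14 (SE 0.15). All 4 sensors overlapped between the groups.

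The 6 genes of the OAS family, whose enzymes make the messenger that activates RNase L, all had positive log2 fold changes, with medians of 0.29 on 8 arrays and 0.60 on 7. Blocks turned some of these: blocked by slide range Oas1a was -0.66 and Oas2 -0.61, and blocked by re-dipping Oas1a was -0.19. Oasl1, which lacks the enzyme activity and in mice is known to restrain Irf7 translation, stood at 5.87, 5.64, 5.30 and 5.79 in PhIP mice 2 to 5 and was not found in PhIP mouse 1 (6.93), against 4.95, 4.92 and 4.46 in PBS mice. It was the only member whose 8 arrays did not overlap, and it was found on 2 of 3 PBS arrays. Its log2 difference was 1.13 (SE 0.36, adjusted p = 0.837), a 2.19-fold difference, and 0.88 (SE 0.20, adjusted p = 0.281), a 1.84-fold difference, with 7 arrays. Blocked by slide range it was 1.45 and within the arrays not re-dipped 1.21, both against PBS mouse 3 alone, the lowest PBS value (4.46). Blocked by re-dipping it was 1.28. The blocked values include PhIP mouse 1, where Oasl1 was not found. Without that scan they were 1.20 by slide range and 0.97 by re-dipping. Within the re-dipped arrays Oasl1 was not tested. Its other probe was found on 2 arrays and was not tested.

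Oasl2, an active 2-5A synthetase in mice, was uneven within the PhIP group. It stood at 7.75, 9.12, 8.65 and 8.85 in PhIP mice 2 to 5 and was not found in mouse 1 (5.84), against 8.04, 7.72 and 7.88 in PBS mice. PhIP mice 3 to 5 lay above every PBS mouse, and mouse 2 lay among them. The log2 difference was 0.17 (SE 0.71) with 8 arrays and 0.71 (SE 0.31, adjusted p = 0.539) with 7. Oas1g was likewise lowest in mouse 2 among PhIP mice 2 to 5, at 4.67, 6.29, 6.33 and 6.55 in PhIP mice 2 to 5 with mouse 1 at the floor, against 5.30, 4.96 and 5.51 in PBS mice. Its log2 difference was 0.39 (SE 0.55) and 0.71 (SE 0.45), and its second tested probe gave 0.73 (SE 0.37) with 8 arrays and 0.96 (SE 0.28) with 7. That probe was at the floor in PBS mice 1 and 2, so its values are partly bounds. Oas1a had 0.02 (SE 0.70) and 0.49 (SE 0.46), with PBS mouse 3 (6.94) above PhIP mice 2 and 4 (5.70 and 6.67). Oas2 had 0.23 (SE 0.50) and 0.33 (SE 0.53). Oas3 was at the floor on 3 of 5 PhIP arrays and 2 of 3 PBS arrays, so its 0.35 (SE 0.34) rests on 3 arrays above the floor. The highest of these, 5.84, was PhIP mouse 1, where Oas3 was not found, and with 7 arrays the value was 0.098 (SE 0.19).

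**Figure D3:**
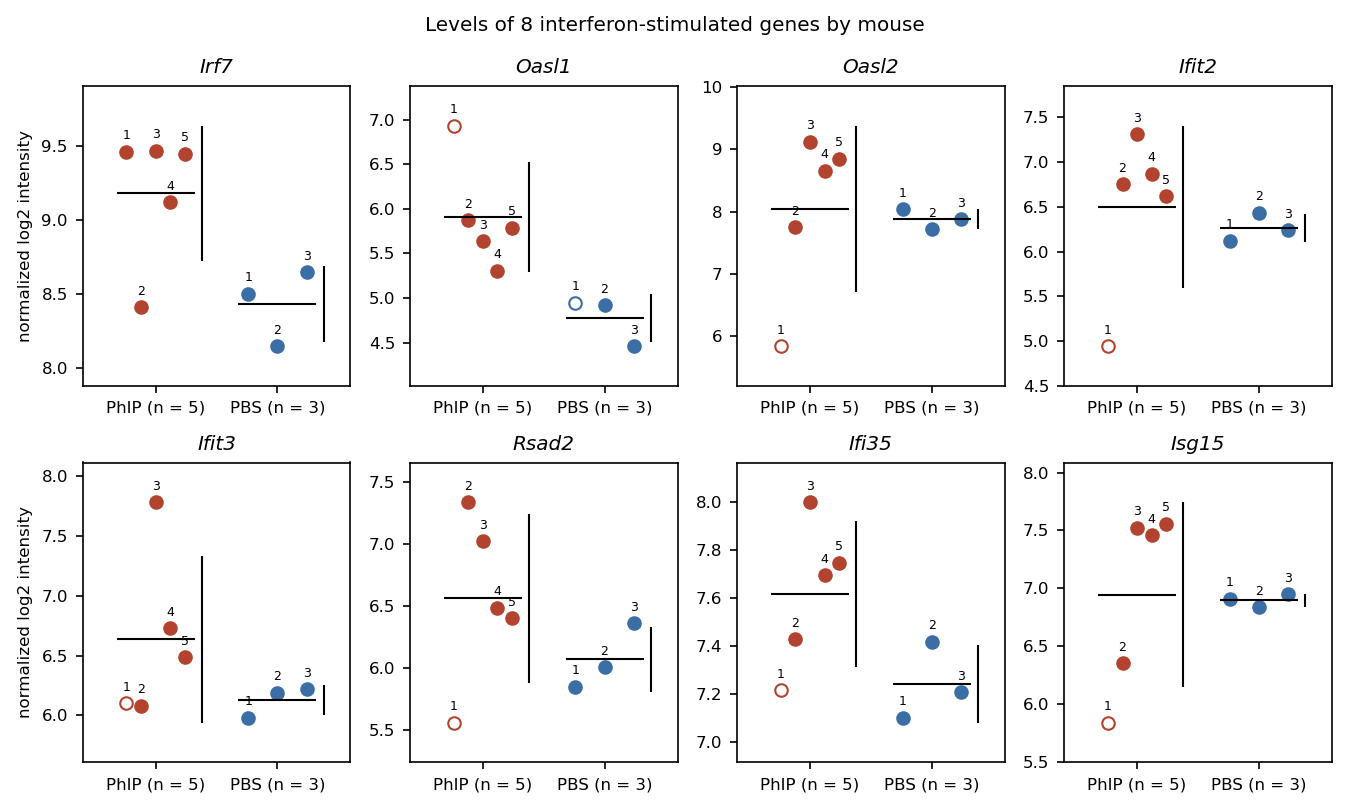
Normalized log2 intensity of 8 members by mouse, numbered as in the labels, with PhIP mice (red, n = 5) left of PBS mice (blue, n = 3). Open symbols are spots not found above background, horizontal lines are group means and vertical lines span 1 SD to either side. Irf7, Oasl2, Ifit3 and Isg15 lie above every PBS mouse in PhIP mice 3 to 5, and at or below some PBS mice in PhIP mouse 2.

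Some proteins of the IFIT family bind viral RNA by its altered 5′ end. Ifit2 stood at 6.75, 7.31, 6.87 and 6.62 in PhIP mice 2 to 5 and was not found in mouse 1 (4.94), against 6.12, 6.43 and 6.24 in PBS mice. The 4 found PhIP values lay above all PBS values, at a log2 difference of 0.63 (SE 0.20, adjusted p = 0.432) on 7 arrays and 0.23 (SE 0.52) on 8. Ifit3 was highest in PhIP mouse 3, at 7.78, with 6.08, 6.73 and 6.49 in mice 2, 4 and 5 and 6.10, not found, in mouse 1, against 5.98, 6.19 and 6.22 in PBS mice. Its log2 difference was 0.50 (SE 0.42), and 0.64 (SE 0.38, adjusted p = 0.651) with 7 arrays. Its other 2 tested probes gave 0.33 (SE 0.25) and 0.71 (SE 0.37) with 8 arrays and 0.41 (SE 0.25) and 0.94 (SE 0.29) with 7, and each was highest in PhIP mouse 3. The first of them was at the floor in every PBS mouse and in PhIP mice 1, 2 and 5. The second was at the floor in PBS mice 1 and 3 and in PhIP mouse 1, so the values of both are partly bounds.

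Isg15, the ubiquitin-like modifier, was tight in PBS mice, at 6.91, 6.83 and 6.95. It stood at 7.52, 7.46 and 7.56 in PhIP mice 3 to 5, at 6.35 in mouse 2 and at 5.84, not found, in mouse 1. Mice 3 to 5 lay above and mice 1 and 2 below all PBS values, and the log2 difference was 0.05 (SE 0.47), or 0.33 (SE 0.31, adjusted p = 0.773) with 7 arrays. Usp18, the protease that removes Isg15 and damps interferon signalling, ran in the same order across the PhIP mice. It was 5.25, 6.75, 6.55 and 6.91 in PhIP mice 2 to 5, with mouse 1 at the floor, against 6.44, 5.96 and 6.39 in PBS mice. Its log2 difference was -0.29 (SE 0.60), and 0.10 (SE 0.40) with 7 arrays.

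Among the antiviral effectors, Rsad2, which encodes viperin, was 1 of 4 members that were highest in PhIP mouse 2 among mice 2 to 5. It stood at 7.33, 7.02, 6.49 and 6.40 in PhIP mice 2 to 5 and was not found in mouse 1 (5.56), against 5.85, 6.01 and 6.36 in PBS mice. The 4 found values lay above all PBS values, and the log2 difference was 0.74 (SE 0.27, adjusted p = 0.478) on 7 arrays and 0.49 (SE 0.42) on 8. Bst2, the tether that holds budding virus at the membrane, was found on all arrays. Its levels were 11.26, 10.21, 11.05, 10.63 and 11.03 in PhIP mice 1 to 5, against 10.70, 10.23 and 10.51 in PBS mice. The groups overlapped, with 0.36 (SE 0.25) and 0.25 (SE 0.22). Ifitm3, which blocks viral entry, was 11.52 to 12.44 in PhIP mice and 11.81 to 12.45 in PBS mice, with 0.02 (SE 0.26) and 0.08 (SE 0.25). The kinase gene Eif2ak2 (PKR) had -0.71 (SE 0.92) and 0.07 (SE 0.20), and the exonuclease gene Isg20 had -0.78 (SE 0.60) and -0.30 (SE 0.22).

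Ifi35 and Ifi44, whose functions are less well defined, had positive values with 8 arrays and with 7. Ifi35 stood at 7.43, 8.00, 7.69 and 7.75 in PhIP mice 2 to 5 and was not found in mouse 1 (7.22), against 7.10, 7.42 and 7.21 in PBS mice. Its log2 difference was 0.37 (SE 0.26), and 0.47 (SE 0.17, adjusted p = 0.471) with 7 arrays. Ifi44 lay at the floor in 2 of 3 PBS mice and in PhIP mouse 2, so its log2 fold change of 1.04 (SE 0.55), or 0.91 (SE 0.56) with 7 arrays, is partly a bound. It reached 6.80 and 6.10 in PhIP mice 3 and 5 and 5.24 in mouse 4, and mouse 1 was not found (6.35), against 5.39 in PBS mouse 3.

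The interferon-induced GTPases, which attack the vacuoles of intracellular pathogens and are mostly induced by interferon gamma, centred near 0. Over 5 tested genes the median was -0.08 on 8 arrays and 0.13 on 7. Gbp3 was 6.10 to 6.93 in PhIP mice 2 to 5, with mouse 1 at the floor, and 6.53 to 7.17 in PBS mice, with -0.74 (SE 0.57) and -0.31 (SE 0.24). Gbp2 had -0.11 (SE 0.38) and 0.13 (SE 0.26), Igtp 0.07 (SE 0.40) and 0.25 (SE 0.31), Irgm1 -0.08 (SE 0.36) and 0.15 (SE 0.22), and Iigp1 -0.05 (SE 0.58) and -0.31 (SE 0.54). All 5 overlapped between the groups. The chemokines Cxcl9 and Cxcl10, which recruit T cells and also answer to interferon gamma, were near background. Cxcl9 was found on 1 of 5 PhIP arrays and 2 of 3 PBS arrays, and had -0.03 (SE 0.20) and 0.01 (SE 0.22). Cxcl10 was found on 2 of 5 and 2 of 3, and its 0.52 (SE 0.72) on 8 arrays came with a value of 7.62 on the scan of PhIP mouse 1, where it was not found. It was -0.05 (SE 0.31) on 7 arrays.

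**Figure D4:**
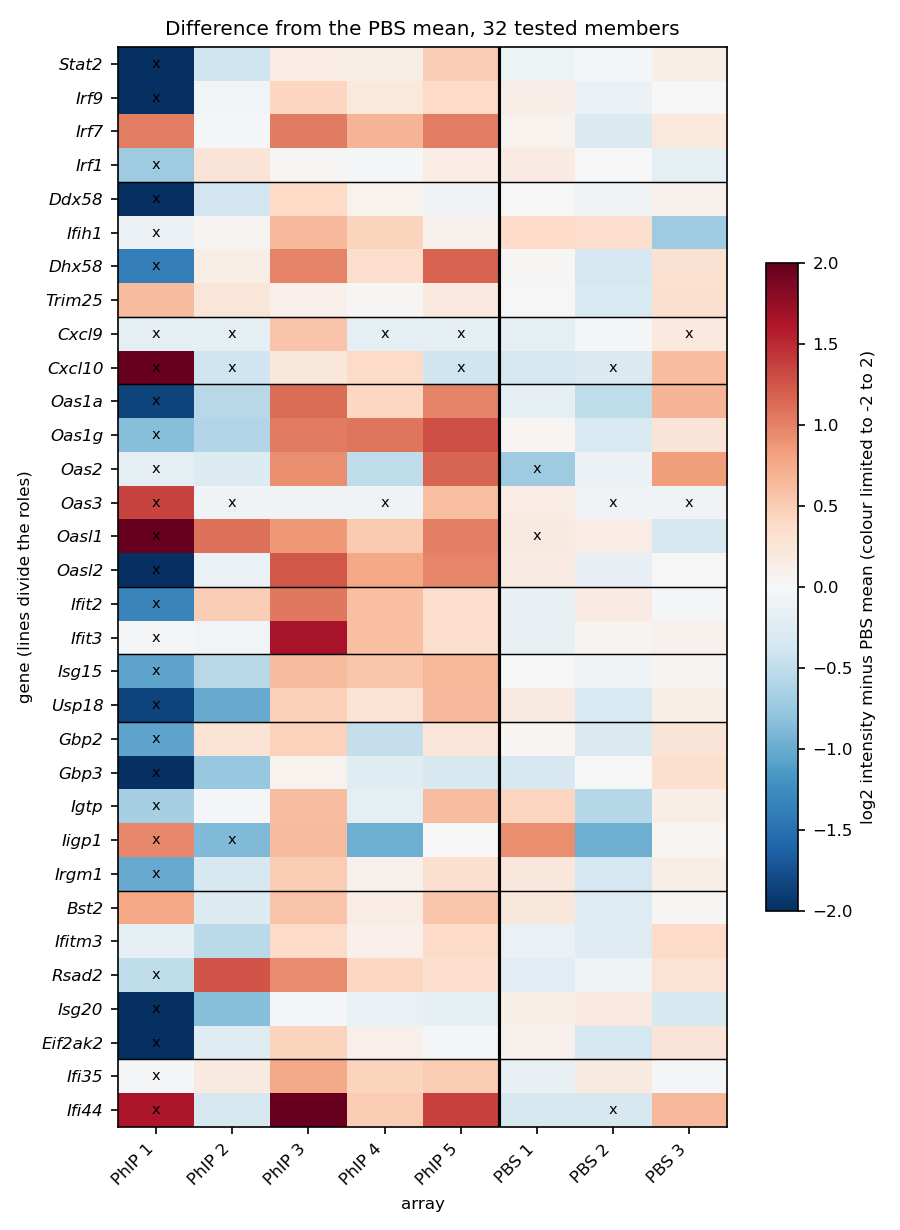
Difference of each tested member from its PBS mean (log2 intensity, colours limited to -2 and 2), with genes by role down the page, the 5 PhIP arrays at left and the 3 PBS arrays at right. Crosses mark spots not found above background, which fill most of the PhIP 1 column. PhIP 3 and PhIP 5 are mostly red and PhIP 2 is mixed.

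The members were spread unevenly within the PhIP group. On the 4 PhIP arrays other than mouse 1, the SD of 24 of 32 members was larger than on the 3 PBS arrays, where 43.9% of all features showed this. The median SD of the members was 0.40 in PhIP mice and 0.27 in PBS mice, and that of all features 0.21 and 0.23. PhIP mouse 3 was the highest of these 4 for 18 of 32 members and the lowest alone for 0. PhIP mouse 2 was the lowest for 23 and the highest for 4, where a tie counts for the lower-numbered mouse. The 23 include Cxcl9, Cxcl10 and Oas3, for which mouse 2 was tied at the floor. For Oas3, mouse 3 was in that tie. Over all features, counted in the same way, PhIP mouse 2 was the lowest for 29.9% and PhIP mouse 3 the highest for 25.4%. The members' median difference from the PBS mean was -0.21 in PhIP mouse 2, 0.59 in mouse 3, 0.18 in mouse 4 and 0.38 in mouse 5, against 0.03, -0.14 and 0.12 in PBS mice 1 to 3. The median of all features, which the normalization between arrays keeps near 0, lay between 0 and 0.04 on these 4 PhIP arrays. By count, 24, 13 and 20 of 32 members lay above every PBS array in PhIP mice 3, 4 and 5 (75%, 40.6% and 62.5%, against 28.6%, 21.3% and 28.8% of all features on 7 arrays). In mouse 2 it was 6 members (18.8%, against 29.9%). These are levels in single mice, described without a test. The cycling cell markers Top2a, Ccnb1 and Cdk1 were also low in PhIP mouse 2, with a median difference from the PBS mean of -0.94, against 0.03, 0.29 and -0.19 in PhIP mice 3 to 5 and 0.10, 0.0011 and -0.27 in PBS mice 1 to 3. The part of cycling cells in the members' values was not tested.

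The p53 targets lay between 1.20 and 1.35 on the same 4 arrays. The authors' deposited matrix held a further PhIP array. Its PhIP 1 column equalled the scan that was deposited as PhIP mouse 2, while no scan used here matched its PhIP 2 column. Which array belongs to PhIP mouse 1 and which to PhIP mouse 2 is therefore uncertain, and values credited to them here follow the deposited scans. In that matrix the members' median difference from the PBS mean was -0.21 and -0.14 in the columns of PhIP mice 1 and 2, and 0.60, 0.18 and 0.37 in those of mice 3 to 5, against 0.03, -0.14 and 0.12 in the PBS columns. Irf7 was 8.59, 8.55, 9.65, 9.30 and 9.63 in PhIP columns 1 to 5, against 8.69, 8.33 and 8.83 in the PBS columns. With these arrays through the same steps, 24 of 32 members were positive (55.7% of all features), the median was 0.15, and 0 passed by limma. At an unadjusted p under 0.05 there were 3 members, against 11.0% of features. Oasl1 then had 0.93 (SE 0.19, adjusted p = 0.164).

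**Figure D5:**
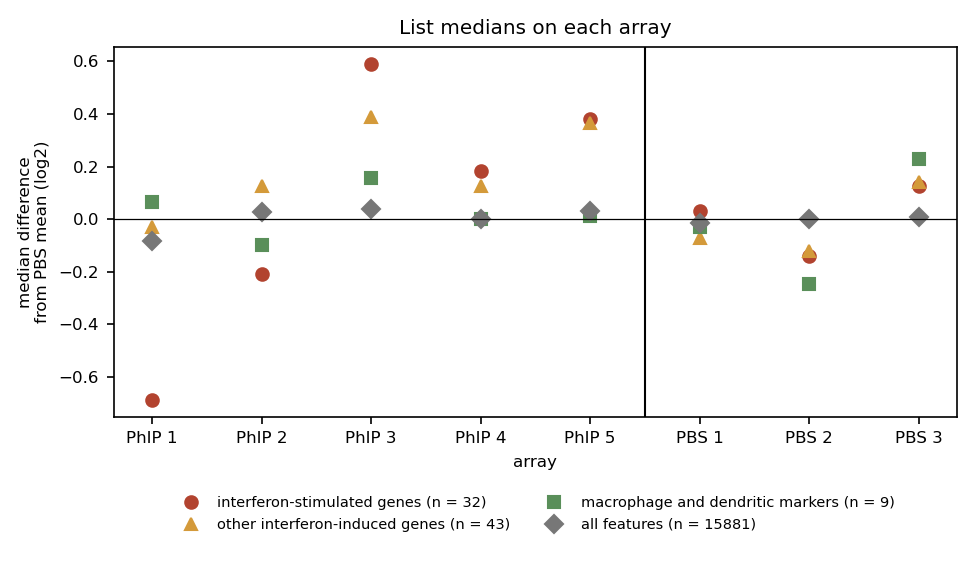
Median difference from the PBS mean (log2) on each array for 4 sets: the 32 members, 43 other interferon-induced genes, 9 macrophage and dendritic cell markers and all 15881 features. The members run between -0.21 (PhIP 2) and 0.59 (PhIP 3) on the PhIP arrays other than PhIP 1. All features stay near 0, where the normalization between arrays keeps their median.

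Upstream of these genes, the interferon transcripts themselves were largely below detection. Of 16 ligands with a probe, 12 were found on 0 arrays, among them Ifnb1, Ifng, Ifnl3 and Ifna4. Ifna5, a type I interferon, was the only interferon tested. It stood at 5.58, 6.26, 5.73 and 5.51 in PhIP mice 2 to 5 and was not found in mouse 1 (6.76), against 4.91, 5.08 and 5.24 in PBS mice. The groups did not overlap, at a log2 difference of 0.89 (SE 0.33, adjusted p = 0.837), and 0.70 (SE 0.21, adjusted p = 0.414) with 7 arrays. The interleukins Il15 and Il18, listed with the ligands, had -0.0027 (SE 0.15) and -0.32 (SE 0.26) on 7 arrays, and -0.79 (SE 0.92) and -0.73 (SE 0.56) on 8.

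All 6 receptor genes were tested and 0 passed, with 2 positive and 4 negative on 8 arrays. On 7 arrays the log2 fold changes of the type I receptor genes Ifnar1 and Ifnar2 were 0.07 and 0.14. Those of the interferon gamma receptor genes Ifngr1 and Ifngr2 were -0.07 and -0.09, and those of the type III receptor genes Ifnlr1 and Il10rb were 0.07 and 0.15. Their SEs lay between 0.09 and 0.31. On 8 arrays the 6 values, in the same order, were -0.34, 0.54, -0.72, -0.12, 0.13 and -0.45.

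Of 13 signalling genes 0 passed, with 6 positive and 7 negative on 8 arrays. The kinase gene Jak1 was lower on all 5 PhIP arrays than on any PBS array, at 8.05, 9.27, 9.08, 9.21 and 9.18 in PhIP mice 1 to 5, against 9.46, 9.28 and 9.49 in PBS mice. It was found on 4 of the 5, and its log2 difference was -0.45 (SE 0.29, adjusted p = 0.837), or -0.22 (SE 0.09, adjusted p = 0.532) with 7 arrays. On 7 arrays the kinases Jak2 and Tyk2 had 0.01 and 0.08, and Stat3 had -0.26. The feedback inhibitors Socs1 and Socs3 had -0.14 and 0.11, and Pias1 -0.0038. The phosphatases Ptpn2, Ptpn6 and Ptpn11 had 0.09, 0.17 and -0.18, and the factors Irf2 and Irf8 had 0.10 and -0.03. On 8 arrays, where PhIP mouse 1 was at the floor for Jak2, Tyk2 and Socs3, the values of these 3 were -0.72, -0.84 and -0.19. Stat3 then had 0.04, Socs1 -0.50, Pias1 0.06, Ptpn2 0.32, Ptpn6 0.19, Ptpn11 -1.24, Irf2 0.11 and Irf8 -0.77. Of 12 sensors and adaptors outside the members 0 passed, with a median of 0.10 on 8 arrays and 0.01 on 7.

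Of 43 other interferon-induced genes tested, 28 were positive on 8 arrays (median 0.16) and 30 on 7 (median 0.18). By limma 0 passed, and 3 and 11 had an unadjusted p under 0.05, against 3.08% and 9.26% of all features in either direction. Ly6e, a surface protein that restricts viruses, had 14.54, 14.46, 14.53, 14.57 and 14.79 in PhIP mice 1 to 5, against 14.23, 14.15 and 14.24 in PBS mice. The groups did not overlap, at a log2 difference of 0.37 (SE 0.13, adjusted p = 0.837), and 0.38 (SE 0.09, adjusted p = 0.322) with 7 arrays. On 8 arrays Psmb8, an immunoproteasome subunit, had 0.68 (SE 0.24), Cd274 (PD-L1) 0.96 (SE 0.40) and the peptide transporter gene Tap1 0.52 (SE 0.27), and on 7 arrays they had 0.54, 0.72 and 0.65. In the other direction Sp100 had -0.50 (SE 0.26), Gbp5 -0.34 (SE 0.32), Trim34a -0.41 (SE 0.41) and Ube2l6 -0.42 (SE 0.47) on 8 arrays, and -0.55, -0.23, -0.20 and -0.080 on 7. PhIP mouse 1 was at the floor for Gbp5, Trim34a and Ube2l6. On 7 arrays Sat1, a polyamine acetyltransferase, had the smallest adjusted p of this list, at 0.72 (SE 0.094, adjusted p = 0.123), against 0.51 (SE 0.27) on 8. Ido1, which breaks down tryptophan, had 1.09 (SE 0.28, adjusted p = 0.328), against 0.58 (SE 0.66). Both were singled out after their values were seen.

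Markers of other cells were read in the same way. The leukocyte marker Ptprc was found on 0 arrays, as were Ms4a1 and Jchain of B and plasma cells and Cd3d of T cells. The summed intensity of 9 macrophage and dendritic cell markers was 1781 to 2087 in PhIP mice and 1607 to 2277 in PBS mice. That of 4 T cell markers was 3088 to 3855 and 3315 to 3727. The T cell sum mostly follows Cd8b1, which stood at 11.25 to 11.85 in PhIP mice, where Cd3e stood at 5.76 to 8.28. For 3 leukocyte markers the sum was 2228 to 8016 in PhIP mice, the lowest on PhIP mouse 1, and 6852 to 8971 in PBS mice. Cd52 was the brightest of these except on PhIP mouse 1, at 12.30 to 12.83 in PhIP mice 2 to 5. The medians of the macrophage list were -0.10, 0.16, -0.0008 and 0.01 in PhIP mice 2 to 5, against -0.03, -0.25 and 0.23 in PBS mice. All 6 fibroblast markers had negative log2 fold changes, with summed intensities of 15986 to 20967 in PhIP mice and 21900 to 32908 in PBS mice. The summed intensity of 8 epithelial markers was 42750 to 46871 in PhIP mice and 35797 to 39868 in PBS mice, so the groups did not overlap. On 8 arrays 5 of the 8 had positive log2 fold changes, and on 7 arrays 7 did. Krt18 and Krt8, among the brightest of these markers, had 0.49 and 0.37 on 8 arrays. Epcam, Krt19 and Slc26a3 were negative there, at -0.10, -0.15 and -0.97. Of the other lists, 4 smooth muscle markers summed to 17031 to 40562 in PhIP mice, the lowest on PhIP mouse 1. Their sum was 35069 to 43594 in PBS mice. Of the neutrophil markers, 0 were tested. The 3 endothelial markers had a median log2 fold change of -0.57 on 8 arrays and -0.15 on 7. The part of these cells in the members' values was not tested.

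Members with and without an ISRE match in the promoter window overlapped in their values. On 7 arrays the 17 tested members with a match had log2 fold changes of -0.31 to 0.74 with a median of 0.15, and 15 were positive. The 11 without had -0.30 to 0.91 with a median of 0.47, and 10 were positive. On 8 arrays the medians were 0.05 and 0.23.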

How the data were processed

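Per the file headers, GenePix Pro 4.1.1.4 quantified each scan at 635 nm without normalizing it and measured background locally. The deposited scanner intensity was the median of a spot minus its local background. The deposited flag is a score that marks a spot as found, not found, absent or bad. The authors' deposited matrix held log2 values, and 7 of the columns match a scan's log2 intensity up to 1 constant each, whose origin no source used here gives. Groups came from the sample titles, and the labels treat each mouse as a sample.

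Of 38880 spots per array, 35078 were mouse probes. The 3802 others and 23 probes flagged bad were left out. Intensities were quantile normalized, raised to a floor of 21.25 (percentile 5 of found values, 4.41 on the log2 scale) and put on the log2 scale. Values at the floor have no order, and folds against them are bounds. Probes found on at least 3 arrays were kept. RefSeq accessions gave 1 symbol for 23012 probes and none for 12066 (GRCm38.p6), and of several probes the brightest on average represented its gene. The PhIP minus PBS difference was tested in R 4.3.3 with limma 3.58.1 (eBayes with trend after lmFit, 2-sided, Benjamini-Hochberg over all features, threshold 0.05). Levels are normalized log2 intensities, log2 differences are PhIP minus PBS, and SE and adjusted p are limma's over all features. The limma step alone was tested on simulated data. Figures used matplotlib 3.10.9.

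The members and lists were chosen with earlier results of these data known. All tested members are named, with the tested ligand, receptor and signalling genes other than items not reported here and, of other induced genes, the 4 with the smallest p in each direction. The number of arrays limits the precision. Alternatives were other backgrounds, scalings, filters, probe rules, blocks, weights, the authors' matrix and leaving out each array. Values within batches and the blocks on 7 arrays were chosen after the data were seen.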

Additional observations from a re-analysis of the deposited data

Results flagged for a closer look

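Within the 5 PhIP arrays, 5 of the 32 tested members had a single value that lay apart from the rest. The rule flags about 1 of 20 groups by chance, a rate that does not apply where values share the low-signal scan or are tied at the floor. On the scan of PhIP mouse 1, Stat2 stood at 6.10 (8.88 to 9.77 on the other PhIP arrays), Irf9 at 4.41 (8.29 to 8.79) and Eif2ak2 at 4.58 (8.16 to 8.85). Cxcl10 stood at 7.62 there (4.41 to 5.18 elsewhere). None of these 4 was found above background on that scan. Cxcl9 stood at 5.16 on PhIP mouse 3, where it was found, with the other 4 PhIP arrays at the floor of 4.41.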

How the results depend on the processing

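No member passed under any of the 18 planned settings, with a smallest adjusted p of 0.164 (Oasl1, authors' matrix, limma). Of 566 member values under them, 482 kept their sign and 84 turned. The cause was not tested. Leaving out each array in turn gave 0 to 5 genes higher, 0 to 1 lower, 14 to 28 members positive and a median of -0.07 to 0.25. It was -0.07 without PhIP mouse 3, -0.04 without PhIP mouse 5 and 0.25 without PhIP mouse 1. Higher and lower genes numbered 0 and 0 with median scaling, 1 and 1 with no filter on dim probes, 0 and 0 with the mean of a gene's probes, 0 and 2 with slide range as a block, 1 and 0 with re-dipping as a block, 9 and 2 in the authors' matrix, and 10 and 1 with array weights, against 2 and 0. Members positive were 13 with slide range as a block, 11 within the re-dipped arrays and 12 within the shared slide range. Replicate numbers do not pair the mice (correlations of deviations -0.09, 0.19 and -0.12). With the replicate block on mice 1 to 3 of each group, 0 genes were higher, 0 lower, 14 members positive and the median was -0.09.

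With normexp background correction the sign turned for Iigp1 (0.049). With median scaling the sign turned for Irf1 (0.032), Oas1a (-0.025) and Ifngr2 (0.14). With the mean of a gene's probes the sign turned for Irf1 (0.053) and Pias1 (-0.23). Blocked by slide range, the sign turned for Irf1 (0.11), Dhx58 (-0.059), Trim25 (-0.076), Cxcl10 (-0.096), Oas1a (-0.66), Oas2 (-0.61), Isg15 (-0.0010), Igtp (-0.063), Ifitm3 (-0.37), Ifnar2 (-0.13) and Stat3 (-0.093). Blocked by re-dipping, the sign turned for Cxcl9 (0.0092), Oas1a (-0.19), Isg15 (-0.034), Iigp1 (0.19) and Ifitm3 (-0.013). In the fit with the replicate block the sign turned for Dhx58 (-0.090), Cxcl9 (0.087), Oas1a (-0.41), Oas1g (-0.12), Oasl2 (-0.31), Isg15 (-0.33), Igtp (-0.035), Iigp1 (0.22) and Ifitm3 (-0.12). In the authors' matrix the sign turned for Stat2 (0.017), Irf9 (0.20), Irf1 (0.14), Cxcl10 (-0.047), Usp18 (0.021), Gbp2 (0.13), Irgm1 (0.069), Ifitm3 (-0.040), Ifnar1 (0.045), Il10rb (0.15), Jak2 (0.067), Tyk2 (0.055), Stat3 (-0.28) and Socs3 (0.22). With array weights the sign turned for Stat2 (0.14), Irf9 (0.22), Irf1 (0.016), Ddx58 (0.049), Cxcl9 (0.081), Usp18 (0.18), Gbp2 (0.10), Irgm1 (0.16), Eif2ak2 (0.10), Ifnar1 (0.17), Il10rb (0.15), Tyk2 (0.051), Stat3 (-0.27), Socs3 (0.097) and Pias1 (-0.035). Leaving out 1 array turned the sign, over these ranges, for Stat2 (-0.83 to 0.086), Irf9 (-0.84 to 0.24), Irf1 (-0.16 to 0.095), Ddx58 (-0.62 to 0.0054), Ifih1 (-0.14 to 0.41), Cxcl9 (0.0073 to 0.070), Cxcl10 (-0.048 to 0.83), Oas1a (-0.25 to 0.49), Oas2 (-0.13 to 0.65), Oasl2 (-0.10 to 0.71), Isg15 (-0.11 to 0.33), Usp18 (-0.52 to 0.10) and Gbp2 (-0.26 to 0.13), and likewise for Igtp (-0.21 to 0.29), Iigp1 (-0.53 to 0.42), Irgm1 (-0.26 to 0.15), Ifitm3 (-0.10 to 0.22), Eif2ak2 (-0.99 to 0.072), Ifnar1 (-0.53 to 0.073), Il10rb (-0.61 to 0.15), Jak2 (-0.92 to 0.012), Tyk2 (-1.10 to 0.080), Stat3 (-0.26 to 0.23), Socs3 (-0.39 to 0.11), Pias1 (-0.031 to 0.11) and Irf2 (-0.0031 to 0.22).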
